A study of Mus musculus with 11 samples.

Results

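Levels of 10 genes of RNA-binding proteins that shape splicing in the nervous system were followed after deletion of Chd8 in the embryonic mouse cortex (E14.5). They were chosen by symbol: Rbfox1, Rbfox2, Rbfox3, Nova1, Nova2, Elavl2, Elavl4, Ptbp1, Ptbp2 and Srrm4. Each of the 10 symbols matched a single locus among the 24138 loci of the deposited table, and none shared its locus entry with another symbol. The 2 conditional knockout (cKO) libraries were labelled Chd8 c/c, Emx1-cre. Of the 3 control libraries, replicate 1 was labelled Chd8 c/+ and replicates 2 and 3 were labelled Chd8 c/c, and no Cre was named for them. Chd8 encodes a chromatin remodelling enzyme linked to autism, c is its conditional allele, which every library carried, and the Emx1 promoter drives Cre in progenitors of the dorsal telencephalon and their progeny. Cells of other lineages in the dissected cortex therefore keep Chd8, and the labels do not say whether a library came from a single embryo or from a pool. The p-values measure only the spread between these libraries, which may be technical. A treatment field of the RNA-seq samples speaks of an Eed knockout, while their titles, genotypes and extraction text name Chd8. The 6 ATAC-seq samples of sorted cells were not analysed here.

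These proteins bind short motifs in pre-mRNA and decide which exons are kept. Rbfox proteins bind GCAUG, Nova proteins bind clusters of UCAU, Elavl (neuronal Hu) proteins bind U-rich stretches, and the polypyrimidine tract binding proteins Ptbp1 and Ptbp2 bind CU-rich stretches. In cortical development Ptbp1 is high in progenitors, where it represses neuronal exons and lowers Ptbp2 by skipping an exon of its transcript. Ptbp1 gives way to Ptbp2 as neurons form, and Rbfox, Nova, Elavl and Srrm4 proteins then promote the neuronal exon programme.

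The data gave a mean level for each whole locus, in FPKM (fragments per kilobase of transcript, scaled to the size of the library), and do not show exon use. FPKM summed to 418191 and 443749 in the cKO libraries and to between 421500 and 484296 in the controls, and sequencing depth is unknown. Chd8 RNA was 19.3 and 15.1 FPKM in cKO replicates 1 and 2 and 31.5, 30.02 and 31.8 FPKM in control replicates 1 to 3. Both cKO libraries were below every control, and the cKO mean was 0.552 times the control mean. Chd8 itself was not called by the test used here (log2 change -0.83, adjusted p = 0.575 in limma), while the authors' deposited table marked it significant with a q-value of 0.00331. A locus was tested if it averaged at least 1 FPKM over the 5 libraries, which left 12672 loci, all 10 regulators among them. The test was limma on log2(FPKM + 1), with Benjamini-Hochberg adjustment over all tested loci. Log2 changes are cKO minus control on that scale. It called 6 loci at an adjusted p under 0.05, 2 higher and 4 lower in the cKO. That count became 13 when either control replicate 1 (3 higher and 10 lower) or control replicate 2 (4 higher and 9 lower) was left out. The balance turned to higher calls with cKO replicate 1 left out (25 higher and 2 lower) and with cKO replicate 2 left out (30 higher and 5 lower).

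Promoter sequences are shown for Ptbp1 and Ptbp2, the paralogues that replace each other as neurons form, and for Srrm4, whose groups did not overlap. They come from RefSeq on GRCm38.p6 and cover the 250 bases before an annotated start, from 5′ to 3′ on the strand of the gene. The Ptbp1 window ends where the span of the gene begins. The Ptbp2 and Srrm4 windows lie inside the gene spans given below, before internal starts. Capitals mark each E-box (CANNTG, a general motif of bHLH factors, a pattern that matches on both strands). They also mark each GC box (GGGCGG or its reverse complement CCGCCC, with overlapping matches counted).
Ptbp1 (chr10:79854182-79854431, plus strand): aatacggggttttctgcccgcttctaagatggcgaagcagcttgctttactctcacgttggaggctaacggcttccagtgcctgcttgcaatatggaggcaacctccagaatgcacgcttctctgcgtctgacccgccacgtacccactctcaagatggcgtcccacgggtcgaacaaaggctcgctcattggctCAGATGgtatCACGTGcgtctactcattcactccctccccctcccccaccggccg
Ptbp2 (chr3:119783389-119783638, minus strand): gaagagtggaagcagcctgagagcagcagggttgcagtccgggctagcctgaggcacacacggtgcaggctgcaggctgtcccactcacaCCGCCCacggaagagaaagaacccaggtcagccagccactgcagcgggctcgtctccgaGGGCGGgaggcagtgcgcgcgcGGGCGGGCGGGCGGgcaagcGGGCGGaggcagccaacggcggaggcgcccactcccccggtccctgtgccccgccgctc
Srrm4 (chr5:116591818-116592067, minus strand): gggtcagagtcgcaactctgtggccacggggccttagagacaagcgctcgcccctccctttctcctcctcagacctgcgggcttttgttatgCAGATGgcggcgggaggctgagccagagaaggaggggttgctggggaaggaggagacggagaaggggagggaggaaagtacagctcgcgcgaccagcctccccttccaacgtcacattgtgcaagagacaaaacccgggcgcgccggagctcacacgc
The Ptbp1 window held 2 E-boxes and no GC box, the Ptbp2 window 6 GC boxes and no E-box, and the Srrm4 window 1 E-box and no GC box. An E-box was present in 66.2% and a GC box in 32.7% of the 32851 promoter windows of the table. G and C made up 57.6% of the Ptbp1 window, 72.4% of the Ptbp2 window and 63.2% of the Srrm4 window, where the median of all windows was 52.4%. Windows were listed for 9 of the 10 genes, 18 in all because several genes have more than a single start. An E-box was in 11 of the 18 windows, and these belonged to 7 genes. The 66.2% is a share of single windows, so the count of genes cannot be set beside it. No data on binding at these windows were used here.

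None of the 10 regulators was called in the comparison of cKO with control, where 0.0473% of all tested loci were (0.0158% higher and 0.0316% lower in the cKO). None had an unadjusted p under 0.05 in limma either, against 7.45% of all tested loci. With cKO replicate 1 left out, 3 did (Rbfox3, Ptbp2 and Srrm4), and with control replicate 1 left out, 1 did (Elavl2), with adjusted p from limma of 0.404 and 0.324. In the authors' deposited table none was marked significant, against 4.31% of the tested loci. The authors' test gave unadjusted p of 0.0066 for Ptbp2, 0.0176 for Rbfox3 and 0.02925 for Srrm4, and over 0.05 for the others. The q-values of Ptbp2, Rbfox3 and Srrm4 were 0.102, 0.175 and 0.234. Log2 changes were positive at 5 genes and negative at 5, the median of the 10 being -0.06, beside 46.9% positive and a median of -0.03 over all tested loci. This balance rested on single libraries. With control replicate 1 left out 7 were positive and 3 negative (median 0.17), and with control replicate 2 left out 2 were positive and 8 negative (median -0.11). With cKO replicate 1 left out 4 were positive and 6 negative (median -0.24), and with cKO replicate 2 left out 8 were positive and 2 negative (median 0.12). The groups did not overlap at 1 gene, Srrm4, while 29.0% of all tested loci had no overlap in either direction. At 8 of the 10 genes the difference between the group means was smaller than the range of the controls alone, and Ptbp2 and Srrm4 were the exceptions. How often this held over all tested loci was not counted, so it is a description only.

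**Figure D1:**
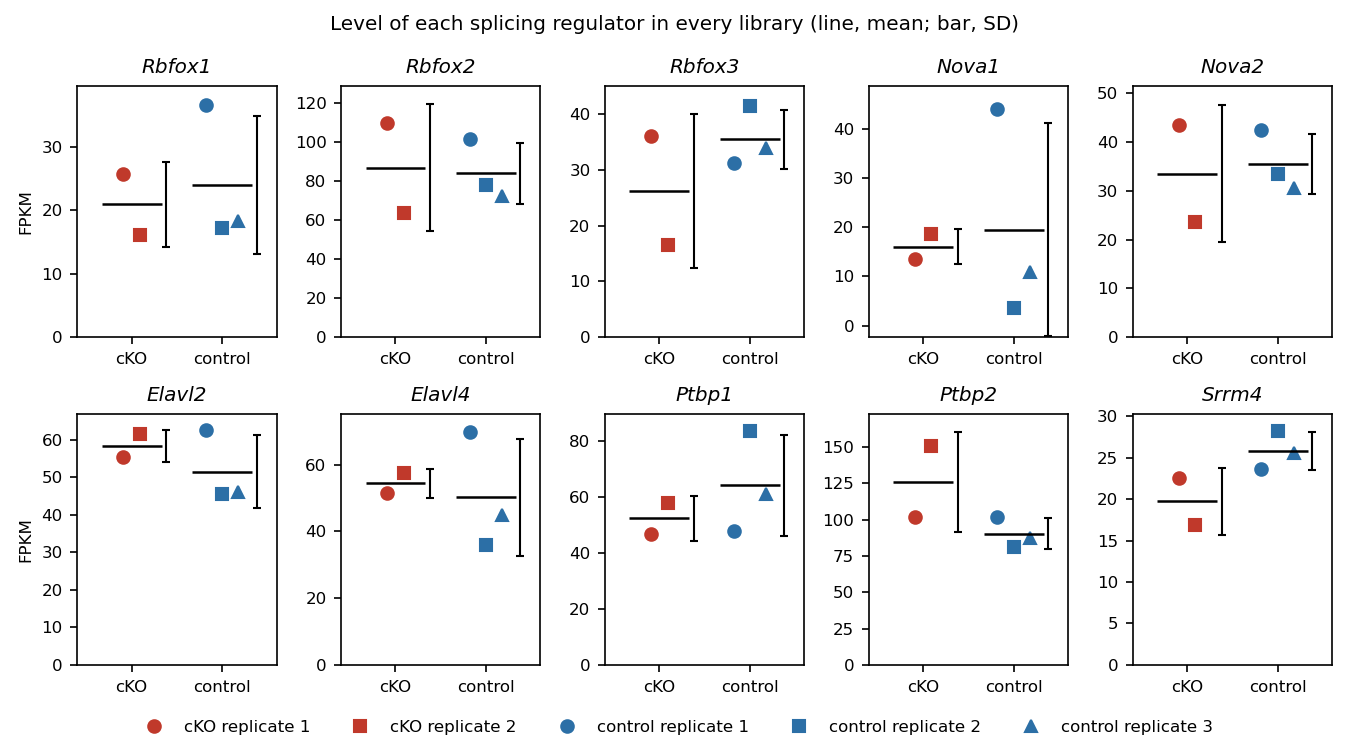
FPKM of the 10 regulators in the 2 cKO and 3 control libraries, with each library as a point (marker shape gives the replicate number), the group mean as a line and the SD as a bar. The cKO points lie apart from the controls only for Srrm4, at 22.5 and 16.9 FPKM, and Nova1 ranges from 3.55 to 44.0 FPKM among the controls.

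Across the 5 libraries Ptbp2 had the highest mean level and Nova1 the lowest, at 104.7 and 18.1 FPKM. Between them, in falling order, stood Rbfox2 (85.2 FPKM), Ptbp1 (59.5), Elavl2 (54.2), Elavl4 (51.95), Nova2 (34.7), Rbfox3 (31.8), Srrm4 (23.4) and Rbfox1 (22.8). By mean level the 10 ranged from the 60.3 percentile for Nova1 to the 95 percentile for Ptbp2 among the tested loci. Most neighbours in this order changed places in some library. Elavl4 exceeded Nova2 in all 5 libraries, Ptbp2 exceeded Rbfox2 in 4, and Ptbp1 exceeded Elavl2 in 2.

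The means of the Ptbp pair differed in opposite directions, Ptbp2 being higher and Ptbp1 lower in the cKO, and neither passed the test. Ptbp2, the neuronal paralogue (chromosome 3, 119718741 to 119784647, GRCm38), was 101.9 and 151 FPKM in cKO replicates 1 and 2 and 102, 81.4 and 87.6 FPKM in control replicates 1 to 3. Replicate 2 of the cKO was above every control, and replicate 1 of the cKO was level with control replicate 1. The log2 change was 0.46 (SE 0.22, 95% confidence interval -0.08 to 1.00, adjusted p = 0.575 in limma). Leaving out cKO replicate 2 gave 0.18 and leaving out cKO replicate 1 gave 0.74. The authors' deposited table gave a log2 fold change of 0.48 with a q-value of 0.102.

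Ptbp1, the progenitor paralogue (chromosome 10, 79854432 to 79864435), was 46.7 and 58.0 FPKM in cKO replicates 1 and 2 and 47.8, 83.5 and 61.2 FPKM in control replicates 1 to 3. The groups overlapped, and control replicate 2 was the high library. The log2 change was -0.26 (SE 0.26, interval -0.91 to 0.39, adjusted p = 0.706 in limma). Leaving out control replicate 2 gave -0.05, leaving out cKO replicate 1 gave -0.11, and leaving out control replicate 1 gave -0.45. The Ptbp1 span overlaps the protein-coding gene Plppr3 and annotated noncoding genes, and reads of overlapping genes cannot be told apart without a stated strand setting.

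The ratio of Ptbp2 to Ptbp1 FPKM does not depend on how a library is scaled. It was 2.18 and 2.60 in cKO replicates 1 and 2 and 2.14, 0.975 and 1.43 in control replicates 1 to 3. Both cKO ratios were above every control, cKO replicate 1 only just above control replicate 1. The mean log2 ratio was 1.25 ± 0.18 in the cKO (SD, n = 2) and 0.53 ± 0.57 in the controls (SD, n = 3), a difference of 0.72, or 0.44 without control replicate 2. The ratio is given as a description with no test. The smallest two-sided exact permutation p that the 10 splits of 2 and 3 libraries allow is 0.1.

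Srrm4, a serine- and arginine-rich protein that promotes the inclusion of neuronal microexons (chromosome 5, 116439268 to 116592562), was 22.5 and 16.9 FPKM in cKO replicates 1 and 2 and 23.7, 28.2 and 25.5 FPKM in control replicates 1 to 3. Both cKO libraries were below every control, with cKO replicate 1 and control replicate 1 the nearest libraries. Over all tested loci, 15.6% had both cKO libraries below every control. The log2 change was -0.38 (SE 0.17, interval -0.81 to 0.04, adjusted p = 0.575 in limma), and leaving out cKO replicate 2 gave -0.18 and leaving out cKO replicate 1 gave -0.58. In the authors' deposited table it was -0.39 with a q-value of 0.234. The span of Srrm4 overlaps the annotated noncoding gene Srrm4os. Rest, which encodes a repressor of neuronal genes and is itself a splicing target of Srrm4, was 4.10 and 3.16 FPKM in cKO replicates 1 and 2 and 3.64, 4.38 and 2.68 FPKM in control replicates 1 to 3, and these groups overlapped.

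**Figure D2:**
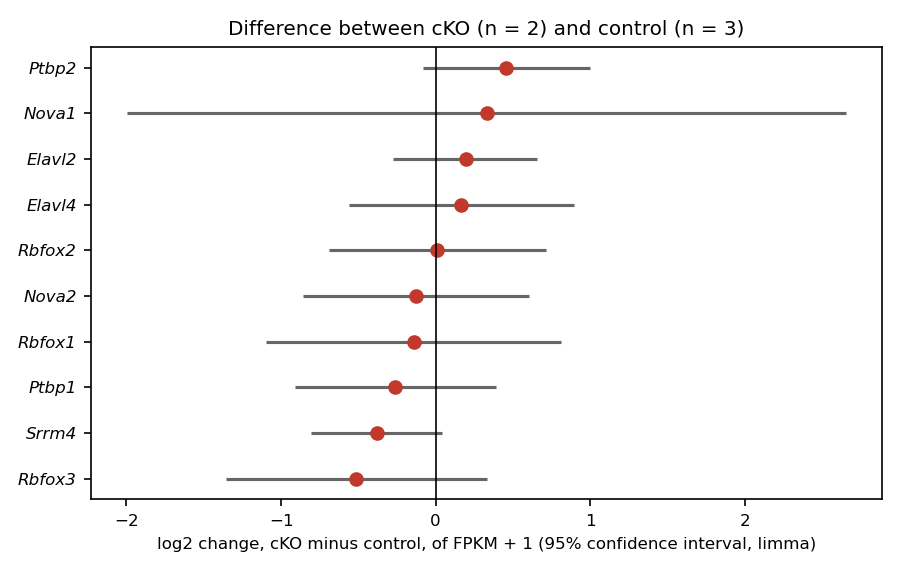
Log2 change of the 10 regulators, cKO minus control, on log2(FPKM + 1), with the 95% confidence interval from limma. Every interval includes 0, and that of Nova1 is the widest, from -1.99 to 2.65.

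The Rbfox genes differed more between the cKO libraries than between the groups. Rbfox3 encodes NeuN, the widely used antigen of mature neurons (chromosome 11, 118489760 to 118911597). It was 36.0 and 16.5 FPKM in cKO replicates 1 and 2 and 31.2, 41.5 and 33.9 FPKM in control replicates 1 to 3. Replicate 2 of the cKO was low and replicate 1 lay among the controls, so the log2 change of -0.51 (SE 0.34, interval -1.36 to 0.33, adjusted p = 0.615 in limma) turned to 0.03 without cKO replicate 2.

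Rbfox2, the most abundant of the family (chromosome 15, 77078990 to 77308434), was 109.9 and 63.9 FPKM in cKO replicates 1 and 2 and 102, 77.97 and 72.5 FPKM in control replicates 1 to 3. The cKO values enclosed all controls. The log2 change was 0.01 (SE 0.28, interval -0.69 to 0.72), and it was -0.37 without cKO replicate 1, -0.03 without control replicate 2 and -0.09 without control replicate 3. Rbfox1, which is tied to neuronal excitability (chromosome 16, 5884793 to 7412480), was 25.7 and 16.1 FPKM in cKO replicates 1 and 2 and 36.5, 17.2 and 18.3 FPKM in control replicates 1 to 3. Control replicate 1 was high and the other 4 libraries overlapped. Its log2 change was -0.14 (SE 0.38, interval -1.10 to 0.81), and it was 0.19 without control replicate 1 and 0.18 without cKO replicate 2.

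Within the family, Rbfox2 took 64.1% and 66.2% of the summed Rbfox FPKM in cKO replicates 1 and 2 and 60.1%, 57.1% and 58.2% in control replicates 1 to 3. Both cKO shares were above every control share, by a mean of 6.7 percentage points. The share of Rbfox3 was 21.0% and 17.1% in cKO replicates 1 and 2 and 18.4%, 30.3% and 27.2% in control replicates 1 to 3, so these groups overlapped. Family shares were computed after the values had been seen, and no test is attached to them.

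**Figure D3:**
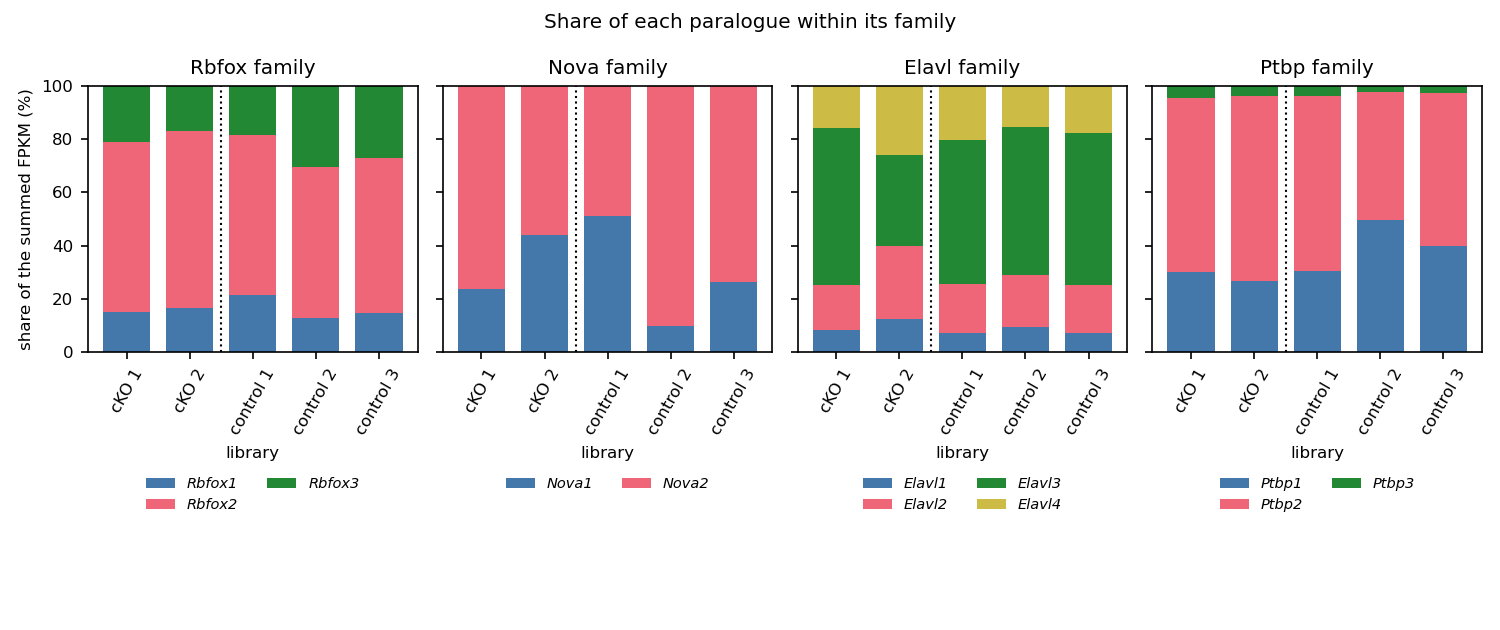
Share of each paralogue in the summed FPKM of its family (%), as stacked bars for the 2 cKO and 3 control libraries, with a dotted line between the groups. Rbfox2 takes 64.1% and 66.2% in the cKO libraries, above the 57.1% to 60.1% of the controls, and Elavl3 takes 34.3% in cKO replicate 2, below every other library.

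Of the 10 genes, Nova1 varied most among the controls. Nova1, whose protein is an autoantigen of paraneoplastic motor disease (chromosome 12, 46697895 to 46819480), was 13.6 and 18.5 FPKM in cKO replicates 1 and 2 and 44.0, 3.55 and 10.8 FPKM in control replicates 1 to 3. The controls spanned a factor of 12.4, and both cKO libraries lay inside that range. Its spread between libraries of a group was at the 97.7 percentile of all tested loci. The cKO mean was 0.825 times the control mean in FPKM, while the log2 change was 0.33 (SE 0.93, interval -1.99 to 2.65), and it was -0.45 without control replicate 2. Nova2, the paralogue with the higher mean level (chromosome 7, 18925888 to 18965319), was 43.5 and 23.6 FPKM in cKO replicates 1 and 2 and 42.4, 33.4 and 30.5 FPKM in control replicates 1 to 3. As at Rbfox2, the cKO values enclosed all controls. The log2 change was -0.13 (SE 0.29, interval -0.86 to 0.60), and it was 0.30 without cKO replicate 2 and 0.01 without control replicate 1. Nova1 took 23.8% and 44.0% of the summed Nova FPKM in the cKO libraries and 51.0%, 9.6% and 26.2% in control replicates 1 to 3.

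The neuronal Hu genes Elavl2 (HuB) and Elavl4 (HuD), which stabilise and splice transcripts of differentiating neurons, were inside the control range in both cKO libraries. Elavl2 (chromosome 4, 91211533 to 91400108) was 55.3 and 61.4 FPKM in cKO replicates 1 and 2 and 62.7, 45.6 and 46.1 FPKM in control replicates 1 to 3. Its log2 change was 0.19 (SE 0.19, interval -0.27 to 0.66), and it was 0.34 without control replicate 1, 0.11 without control replicate 2, and 0.12 without control replicate 3 or without cKO replicate 2. Elavl4 (chromosome 4, 110203737 to 110351939) was 51.4 and 57.6 FPKM in cKO replicates 1 and 2 and 69.8, 35.96 and 45.0 FPKM in control replicates 1 to 3. Its log2 change was 0.17 (SE 0.29, interval -0.56 to 0.89), and it was -0.04 without control replicate 2. Control replicate 1 was the highest library at both genes and control replicate 2 the lowest.

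The third neuronal Hu gene, Elavl3 (HuC), is not among the 10 and was 189.7 and 76.8 FPKM in cKO replicates 1 and 2 and 184, 129 and 147 FPKM in control replicates 1 to 3. With the ubiquitous Elavl1 counted in, Elavl3 took 58.8% and 34.3% of the summed Elavl FPKM in cKO replicates 1 and 2 and 54.0%, 55.5% and 57.4% in control replicates 1 to 3. Replicate 2 of the cKO stood apart and replicate 1 was above every control. The mean difference of -9.0 percentage points became 3.2 with cKO replicate 2 left out and -21.3 with cKO replicate 1 left out.

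**Figure D4:**
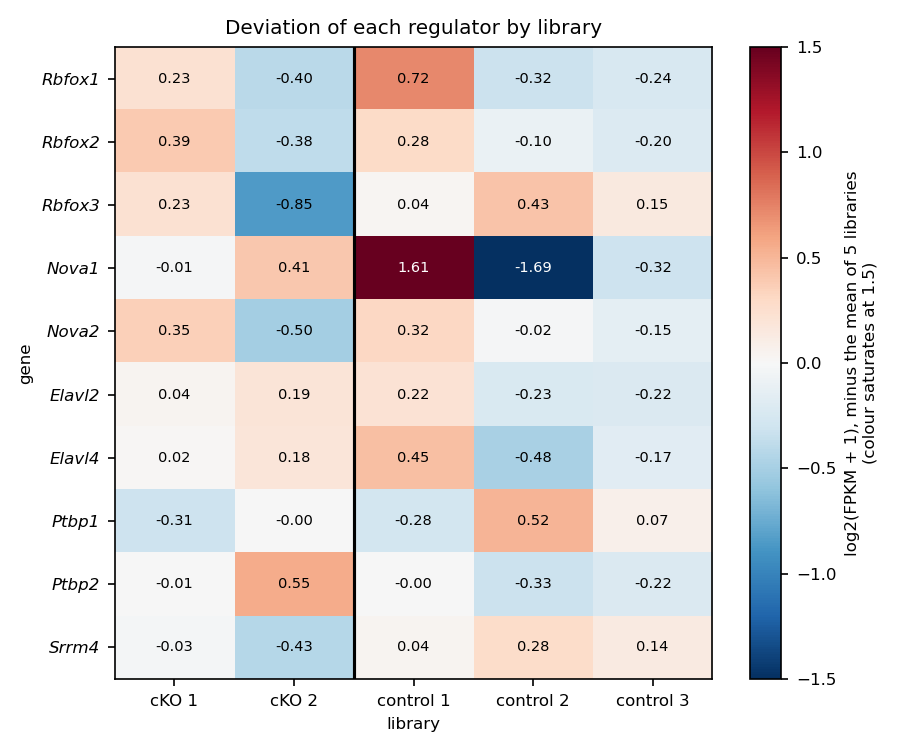
Deviation of each regulator in each library from its mean over the 5 libraries, on log2(FPKM + 1), with red above and blue below the mean and a line between the cKO and control libraries. Replicate 2 of the cKO is low for Rbfox1, Rbfox2, Rbfox3, Nova2 and Srrm4 and high for Ptbp2 and Nova1, and control replicates 1 and 2 deviate in opposite directions at Rbfox1, Rbfox2, Nova1, Nova2, Elavl2, Elavl4 and Ptbp1.

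Single libraries held the extremes of several genes at once. Replicate 2 of the cKO had the lowest value of 5 of the 10 genes and the highest of 1. Control replicate 2 had the lowest value of 4 and the highest of 3, control replicate 1 the highest of 4, and control replicate 3 no extreme. The cKO libraries differed from each other by more than 1.5 times at 4 genes, by 2.19 times at Rbfox3, 1.84 at Nova2, 1.72 at Rbfox2 and 1.59 at Rbfox1, and cKO replicate 1 was the higher at all 4.

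Marker genes of several cell types also differed between libraries. The 12 genes of postmitotic neurons summed to 3361 and 2465 FPKM in cKO replicates 1 and 2 and to 3438, 2766 and 3071 FPKM in control replicates 1 to 3. Tubb3 alone held 1411 and 1101 FPKM of the cKO sums and 1343, 1324 and 1373 FPKM of the control sums. The median log2 change of the 12 was -0.21, with 5 positive and 7 negative. Both cKO libraries were above every control at 2 of the 12, Dcx and Snap25, and below every control at 0. Over all tested loci these shares were 13.4% and 15.6%, and 46.9% had a positive log2 change. The 8 radial glia genes summed to 1404 and 1493 FPKM in the cKO and to between 1344 and 1873 FPKM in the controls, with control replicate 2 the highest. Vim and Fabp7 were the largest parts of each of these sums. Their median log2 change was -0.34, with 3 positive and 5 negative, and both cKO libraries were below every control at Nes, Vim and Hes1 and above every control at Fabp7. The 5 genes of intermediate progenitors summed to 171 and 125 FPKM in the cKO and to 197, 468 and 303 FPKM in control replicates 1 to 3, and all 5 had a negative log2 change. The 8 genes of the ventral telencephalon summed to 453 and 496 FPKM in the cKO and to 236, 225 and 352 FPKM in control replicates 1 to 3, and all 8 had a positive log2 change. Microglial genes summed to 66.2 and 50.1 FPKM in the cKO and to between 24.4 and 35.2 FPKM in the controls, with a positive change at all 8. Both cKO libraries were above every control at 7 of them. At Cx3cr1 the log2 change was 0.06, with 4.575 FPKM in cKO replicate 1 and 0.875 FPKM, below every control, in cKO replicate 2. The 6 vascular genes summed to 83.9 and 93.9 FPKM in the cKO and to between 69.1 and 82.9 FPKM in the controls. Their median log2 change was 0.07, with 4 positive and 2 negative, and the groups overlapped at 5. Erythroid loci summed to 1285 and 1201 FPKM in the cKO and to between 1176 and 1352 FPKM in the controls. The 5 meningeal genes, all low, summed to 5.83 and 4.40 FPKM in the cKO and to 3.07, 17.7 and 4.50 FPKM in control replicates 1 to 3, so control replicate 2 stood apart. No gene of these lists was listed at 0 in every library. The part of these shifts in the levels of the splicing regulators was not tested, and fewer cells of a type cannot be told apart from less RNA per cell in bulk samples.

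A list of 25 other genes held further RNA-binding regulators, among them Elavl, Celf, Mbnl, Khdrbs and Msi genes, and the transcriptional repressor gene Rest, and 22 of them were tested. None was called by limma, beside 0.0473% of all tested loci. An unadjusted p under 0.05 was found at 4, beside 7.45% of all tested loci, with 3 higher and 1 lower in the cKO. The median log2 change was -0.01, with 11 positive and 11 negative. Both cKO libraries were above every control at 6 genes and below every control at 2, beside 13.4% and 15.6% of all tested loci. Celf2, a CUGBP family splicing factor, was 107 and 101 FPKM in cKO replicates 1 and 2 and 76.97, 72.97 and 68.9 FPKM in control replicates 1 to 3. Its log2 change was 0.51 (SE 0.13, adjusted p = 0.575 in limma). Ptbp3, the third Ptbp paralogue, was 6.95 and 7.83 FPKM in the cKO and 5.98, 3.86 and 4.04 FPKM in the controls. Mbnl1, a muscleblind splicing factor, was 7.97 and 11.3 FPKM in the cKO and 7.63, 5.69 and 5.87 FPKM in the controls. Zfp36l1, which promotes decay of AU-rich transcripts, was 16.8 and 10.3 FPKM in the cKO and 21.1, 24.5 and 19.1 FPKM in the controls. These 4 genes were picked as those of the list with the smallest p, and at each the groups did not overlap.

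Of 16 transcripts whose splicing these proteins are known to control, none was called by limma and none had an unadjusted p under 0.05. The median log2 change was -0.08, with 4 positive and 12 negative, beside 46.9% positive over all tested loci. Both cKO libraries were below every control at 2 genes, beside 15.6% of all tested loci. The smallest unadjusted p was that of Dab1, the adaptor of Reelin signalling and a Nova2 target, at 37.1 and 34.2 FPKM in the cKO and 44.97, 42.9 and 39.1 FPKM in the controls. Agrn, which encodes agrin, a Nova target, was 73.5 and 83.4 FPKM in the cKO and 100.4, 89.5 and 83.8 FPKM in the controls, with a margin between the groups of under 1 FPKM. Flna and Src, targets of Ptbp1 that encode filamin A and a tyrosine kinase, overlapped between the groups. Flna was 39.6 and 48.5 FPKM in the cKO and 45.7, 65.1 and 55.1 FPKM in the controls. Src was 53.5 and 37.5 FPKM in the cKO and 52.99, 59.01 and 52.3 FPKM in the controls.

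For the 3 regulators with the smallest p, the loci with the most similar profile over the 5 libraries were found from the root mean square difference of centred log2(FPKM + 1) values, as a description. For Srrm4 these were Adcy6, Zscan21 and Abcb8, at 0.017, 0.024 and 0.024 log2 units. For Ptbp2 they were Tmed7, Far1 and Cnih1, at 0.024, 0.027 and 0.037. For Rbfox3 they were Vps37d, Tmem242 and Gnl1, at 0.025, 0.056 and 0.066, all of which were low in cKO replicate 2.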

How the data were processed

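RNA-seq of 2 cKO and 3 control libraries was analysed, grouped by sample titles. The authors deposited FPKM per locus and library and their mean FPKM per group. The unit was read from the Cufflinks identifiers and the values, since the file headers name none. Per the file headers, their comparison of the groups holds log2 fold changes with a test score, and p-values with q-values. Per the submitters' processing notes, CASAVA, TopHat, Cufflinks, Bowtie2 and MACS and the build mm10 were named, without versions or roles, and the strand setting is not given in the sources used here. FPKM carries no counts, so no count test was made. Loci averaging at least 1 FPKM were fitted as log2(FPKM + 1) in limma 3.58.1 under R 4.3.3, using all 5 libraries, no covariate and an intensity trend, and p-values were adjusted by Benjamini-Hochberg over 12672 loci. Residual degrees of freedom were 3, and the prior added 2.49. The procedure was tested on simulated data. Alternatives were pseudocounts of 0.1 and 0.5, no filter or 5 FPKM, 2 rescalings, no trend, the replicate number as a block, and each library left out. Named genes were the 10 regulators, Chd8, the 4 genes of each RNA-binding and target list with the smallest p, and the 3 nearest profiles of 3 regulators. Rest, Elavl1, Elavl3, Plppr3, Tubb3, Dcx, Snap25, Nes, Vim, Hes1, Fabp7 and Cx3cr1 are named besides these, chosen after their values were seen. The members and lists were chosen with earlier results of these data known. Coordinates are those of RefSeq on GRCm38.p6, the assembly that mm10 names. Other annotated genes overlap the span of 7 of the 10.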

Additional observations from a re-analysis of the deposited data

How the results depend on the processing

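No regulator was called under any alternative run, and adjusted p ranged from 0.324 to 1. With the replicate number as a block, the count of called loci was 3 and the log2 change of Rbfox2 was -0.09. Deviations from the group means correlated at -0.07 and -0.11 between cKO and control libraries of replicates 1 and 2. The deviations of the 2 cKO libraries mirror each other by construction. These values therefore cannot show whether equal numbers mark a shared litter or batch. Without a library in turn the count of called loci ranged from 8 to 35, and the Ptbp2 to Ptbp1 difference from 0.44 to 1.01. Log2 changes then ranged from -0.46 to 0.19 for Rbfox1, -0.37 to 0.40 for Rbfox2, -1.06 to 0.03 for Rbfox3, -0.45 to 1.2 for Nova1, -0.55 to 0.30 for Nova2 and -0.04 to 0.43 for Elavl4. They ranged from -1.08 to 0.03 for Vps37d, -0.94 to 0.00 for Tmem242 and -0.99 to 0.03 for Gnl1. Elavl2, Ptbp1, Ptbp2 and Srrm4 kept their direction in every alternative run. The causes were not tested. The other pseudocounts, filters and rescalings and the fit without trend reversed no named gene. The median of all tested loci lay between -0.05 and 0.02 over the alternatives. Where a cKO library is left out, the remaining sample is assumed to vary like the controls.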
